A study of Rattus norvegicus with 12 samples.

Results

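The genes described here are 50 genes of mitosis and the spindle, a list drawn up by name. A row of the expression table belonged to the set when its gene symbol was on the list, and the row with the highest mean was to be taken where a symbol was repeated. The rule found 49 of the 50 among 33801 genes. RNA was measured in bone from around mini implants at the upper first molar of wild-type rats, taken within a diameter of 4 mm. One kind of implant was of titanium (cpTi) and the other of the zirconium-based alloy Zr58Cu25Al14Nb3 (Nb3 alloy), and implants of each kind bore a cyclic load over 2 weeks or stayed static. The 4 groups of 3 libraries were static cpTi, loaded cpTi, static Nb3 alloy and loaded Nb3 alloy. All 12 came from implanted bone, so no group shows bone without an implant, and the labels do not give the age of the animals. Whether replicates came from separate animals is not in the labels, and the p-values therefore cover only the variation among these samples, which may be technical.

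Cells enter mitosis when cyclin B and its kinase Cdk1 become active, after which chromosomes condense, kinetochores attach them to spindle microtubules and the spindle checkpoint holds the cell until every chromosome is attached. The anaphase-promoting complex then destroys securin and cyclin B, sister chromatids part and the cell divides. Transcripts of these genes are made mainly in late S phase, G2 and mitosis, so bulk RNA of bone carries them from whichever of its cells divide, among them the blood-forming cells of the marrow. In bulk RNA, fewer dividing cells and less of these transcripts in each cell cannot be told apart.

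Many, though not all, of the promoters of these genes carry sequence motifs that were not used to list them. Those known from the regulation of late cell cycle genes are the CCAAT box, which binds the factor NF-Y, and the cell cycle genes homology region, with the core TTTGAA or TTCGAA, which binds complexes of the MuvB core. RefSeq promoter windows (build GRCr8, 300 bases, of which 250 lie before the start site the table uses and 50 after it) matched 45 of the 50 listed genes. The 5 without one were Ccna2, Aurkb, Ube2c, Incenp and Tpx2. In 15 of the 45 the window lay at the outer start of the annotated gene, and in the others at another start. Windows of 5 members are shown because they carry both motifs and span the range of the results below: Ccnb2, Plk1 and Top2a, among the members with the largest falls, Cdk1, the kinase at the centre of the programme, and Bub3, the member that fell least. Capitals mark CCAAT (or ATTGG, the same box on the other strand) and TTTGAA or TTCGAA (or TTCAAA, the first of these on the other strand). All are written 5′ to 3′ on the strand of the gene.
Ccnb2, chr8:79981609-79981908, minus strand.
Ccnb2: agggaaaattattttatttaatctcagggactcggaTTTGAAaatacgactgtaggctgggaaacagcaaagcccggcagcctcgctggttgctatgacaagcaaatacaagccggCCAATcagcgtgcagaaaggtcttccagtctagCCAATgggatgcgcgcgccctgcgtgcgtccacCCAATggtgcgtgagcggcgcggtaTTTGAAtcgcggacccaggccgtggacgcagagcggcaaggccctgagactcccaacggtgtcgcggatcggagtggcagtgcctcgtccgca
Cdk1, chr20:19265043-19265342, plus strand.
Cdk1: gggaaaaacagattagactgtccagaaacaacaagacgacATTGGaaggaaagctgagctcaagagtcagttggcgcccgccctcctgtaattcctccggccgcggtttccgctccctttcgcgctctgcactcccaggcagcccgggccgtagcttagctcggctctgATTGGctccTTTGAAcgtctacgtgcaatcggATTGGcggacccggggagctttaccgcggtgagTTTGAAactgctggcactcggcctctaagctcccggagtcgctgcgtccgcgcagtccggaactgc
Plk1, chr1:186147408-186147707, plus strand.
Plk1: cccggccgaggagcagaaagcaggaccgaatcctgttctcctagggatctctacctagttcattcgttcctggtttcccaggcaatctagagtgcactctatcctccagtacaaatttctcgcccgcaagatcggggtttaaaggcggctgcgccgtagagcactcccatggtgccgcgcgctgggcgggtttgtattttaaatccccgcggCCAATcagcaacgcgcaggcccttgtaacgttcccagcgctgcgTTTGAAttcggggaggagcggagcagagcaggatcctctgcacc
Top2a, chr10:84473044-84473343, minus strand.
Top2a: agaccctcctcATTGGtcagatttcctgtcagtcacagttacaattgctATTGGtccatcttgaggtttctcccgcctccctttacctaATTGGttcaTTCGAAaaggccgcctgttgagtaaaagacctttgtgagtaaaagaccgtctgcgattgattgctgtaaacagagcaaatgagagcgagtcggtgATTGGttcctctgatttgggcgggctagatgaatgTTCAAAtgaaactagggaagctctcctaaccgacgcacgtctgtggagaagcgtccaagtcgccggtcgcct
Bub3, chr1:195760282-195760581, plus strand.
Bub3: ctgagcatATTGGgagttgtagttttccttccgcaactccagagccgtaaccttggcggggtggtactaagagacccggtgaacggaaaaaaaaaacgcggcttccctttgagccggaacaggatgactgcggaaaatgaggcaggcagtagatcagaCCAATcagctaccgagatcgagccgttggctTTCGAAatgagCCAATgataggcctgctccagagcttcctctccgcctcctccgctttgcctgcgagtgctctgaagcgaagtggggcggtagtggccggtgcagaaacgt

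In the Ccnb2 window the 3 CCAAT boxes begin 134, 101 and 68 bases before the start, and the nearer TTTGAA begins 43 bases before it. Cdk1 has 3 boxes, at 210, 81 and 49 bases before the start, and TTTGAA at 72 and 16 bases before it. Plk1 has 1 box 38 bases before the start and TTTGAA 6 bases after it. Top2a has 4 boxes, and Bub3 has 3 boxes and TTCGAA 61 bases before the start. Searched on both strands, CCAAT was present in 33 of 45 member windows (73.3%) against 37.5% of 33465 RefSeq windows of the same length. TTTGAA or TTCGAA was present in 35 (77.8%) against 19.7%, and both kinds together in 28 (62.2%) against 7.95%. At least 2 CCAAT boxes stood in 23 member windows (51.1%) against 11.2%. Of the 35 nearest TTTGAA or TTCGAA matches, 33 began between 100 bases before the start and the end of the window, with a median of 24 bases before it. The E2F motif TTGGCGC was present in 13.3% of member windows against 2.26%, and TTCGCGC in 2.22% against 1.51%. A TTTGAA and a CCAAT match can overlap by a base, and each was then counted. These matches describe letters in the windows, not bound sites.

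Depth was 12.9 to 22.3 M reads on genes per library. Across all tested genes the libraries of loaded Nb3 alloy differed from the rest, with Pearson correlations of 0.731 to 0.866 against the other 9, against 0.932 to 0.969 among those 9. Their mitochondrial genes took 11.97%, 24.3% and 11.3% of reads, against 4.31% to 6.86% elsewhere. Levels are given in FPKM (fragments per kilobase of gene, scaled by depth). The scaling depth that the deposited FPKM imply differed from the reads on genes. It was 18.1 M against 22.3 M in loaded Nb3 alloy replicate 2, and 17.1 M against 15.3 M in static Nb3 alloy replicate 2. Differences are on the log2(FPKM + 1) scale from limma, which understates the change of low genes, and calls were made at an adjusted p under 0.05, by Benjamini-Hochberg over the 15268 genes that reached 1 FPKM in at least 3 libraries. Of the 49 genes found, 48 passed this filter, and all 48 reached 1 FPKM in each of the 9 libraries outside loaded Nb3 alloy. The exception was the kinesin gene Kif22, listed at 0 in 10 libraries, at 0.0743 FPKM in loaded cpTi replicate 3 and at 0.0295 FPKM in static Nb3 alloy replicate 3.

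Mitotic transcripts were nearly lost where implants of the Nb3 alloy were loaded. The summed level of the 49 genes was 1590, 1750 and 1970 FPKM in static Nb3 alloy and 123, 139 and 115 FPKM in loaded Nb3 alloy, which left 7.10% of the static mean. Of the 48 tested genes, 48 were called lower and 0 higher, against 25.2% lower and 20.7% higher among all genes tested. All 48 estimates were below 0, as were 51.2% of all genes, and the median log2 difference was -3.15, where the median of all genes was -0.02. Every one of the 48 had its 3 loaded Nb3 alloy values below all 9 other libraries, which was so of 21.2% of all genes tested. In ratios of group mean FPKM, 46 genes were at least 5-fold lower, 36 at least 10-fold and 9 at least 20-fold, with a median of 14.7-fold. In the map of levels by library, the 3 right-hand columns are darker than the rest in each role, least so for Bub3.

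**Figure D1:**
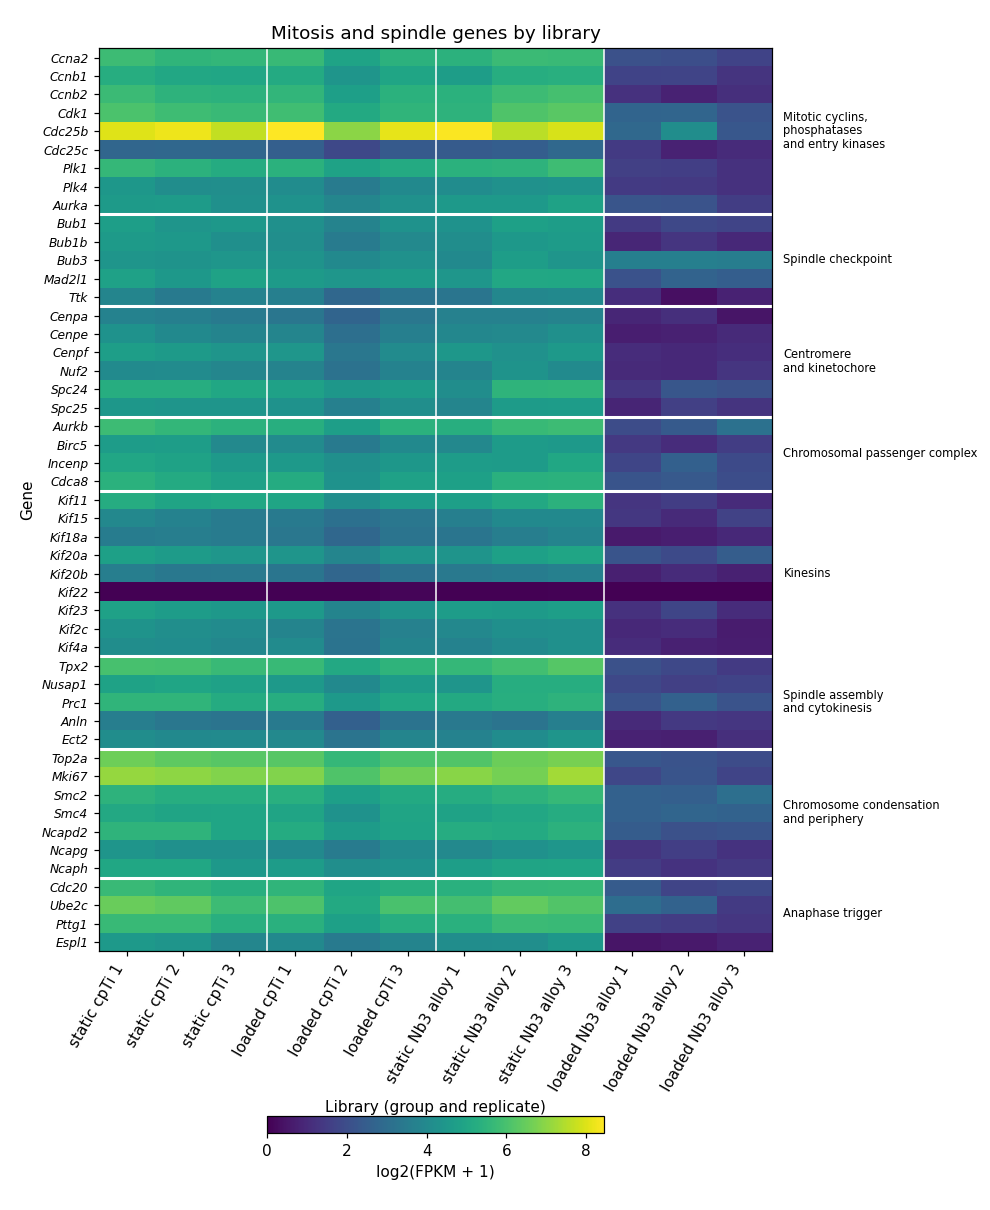
Levels of the 49 mitosis and spindle genes, as log2(FPKM + 1) in colour, with 1 row per gene grouped by role and 1 column per library. The 3 loaded Nb3 alloy libraries are lower than the other 9 in each of the 48 tested genes, while Kif22 is near 0 throughout.

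Mitotic cyclins and the kinases and phosphatases that start mitosis fell together, 9 of 9 called lower with a median of -3.53. Ccnb1, a cyclin B that activates Cdk1, stood at 37.4, 32.5 and 30.9 FPKM in static cpTi, 34.8, 20.3 and 29.9 FPKM in loaded cpTi, 24.8, 37.6 and 39.2 FPKM in static Nb3 alloy and 2.25, 2.34 and 1.41 FPKM in loaded Nb3 alloy. The first 9 values overlap between groups and the last 3 lie well under them. By limma the log2 difference of Ccnb1 was -3.53 (SE 0.22, adjusted p = 8.63e-07). Ccnb2, the other B-type cyclin on the list, whose promoter is shown above, went from 41.5, 54.1 and 61.1 FPKM to 1.33, 0.754 and 1.21 FPKM (log2 difference -4.66), which is 2.10% of its static mean. Cdk1, their partner kinase, went from 43.4, 68.8 and 77.7 FPKM to 5.63, 5.72 and 3.45 FPKM (log2 difference -3.42, SE 0.25, limma adjusted p = 2.41e-06).

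Cdc25b, a phosphatase that activates Cdk1, had the highest levels of the set in the 9 libraries outside loaded Nb3 alloy, and the most uneven ones. It stood at 261, 302 and 203 FPKM in static cpTi, 348, 126 and 278 FPKM in loaded cpTi, 337, 189 and 242 FPKM in static Nb3 alloy and 6.23, 16.5 and 3.92 FPKM in loaded Nb3 alloy. Those 9 libraries ranged over 2.77-fold, and the loaded Nb3 alloy values lay under the lowest of them (log2 difference -4.87, SE 0.47, limma adjusted p = 1.92e-05). Its relative Cdc25c, which acts on the same kinase at mitotic entry, was far scarcer, with 4.39, 4.80 and 6.19 FPKM in static and 1.70, 0.734 and 1.05 FPKM in loaded Nb3 alloy. Plk1, a kinase needed for mitotic entry and spindle assembly, went from 40.9, 43.3 and 55.1 FPKM to 2.02, 1.99 and 1.29 FPKM (log2 difference -4.10, SE 0.18, limma adjusted p = 1.33e-07). Plk4, which starts centriole duplication, and Aurka, a spindle pole kinase, had differences of -2.90 and -2.68.

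The spindle checkpoint delays anaphase while a kinetochore is unattached, and it held the member that fell least. Bub3, which brings Bub1 and BubR1 to kinetochores, stood at 20.3, 19.3 and 20.6 FPKM in static cpTi, 19.2, 15.1 and 18.3 FPKM in loaded cpTi, 15.2, 25 and 20.4 FPKM in static Nb3 alloy and 11.5, 11.4 and 10.9 FPKM in loaded Nb3 alloy. The loaded Nb3 alloy values again lie under the other 9, but at 55.9% of the static mean. Its log2 difference was -0.76 (SE 0.16, limma adjusted p = 0.00259), and it was the 1 member of 48 under 2-fold lower. Bub1, a checkpoint kinase, went from 18.9, 27.1 and 25.3 FPKM to 1.69, 2.52 and 2.30 FPKM (log2 difference -2.96, SE 0.18, limma adjusted p = 8.00e-07). Ttk, the kinase also called Mps1, went from 8.79, 14.0 and 15.2 FPKM to 1.13, 0.279 and 0.753 FPKM (log2 difference -2.99, SE 0.26, limma adjusted p = 9.19e-06). Its lowest loaded value rests on 17 reads, the fewest of any tested member in these libraries. The checkpoint genes as a group kept 18.8% of their summed static level, the highest share of the 8 roles, and Bub3 made up most of what was left.

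Centromere and kinetochore genes, which tie chromosomes to microtubules, were called lower in 6 of 6, with differences from -3.37 to -2.89. Cenpa, the histone variant that marks centromeres, stood at 12.1, 12 and 12.8 FPKM in static and 0.876, 1.19 and 0.406 FPKM in loaded Nb3 alloy (log2 difference -2.89, SE 0.20, limma adjusted p = 1.39e-06). Cenpe, a kinetochore motor, went from 14.0, 14.8 and 18.0 FPKM to 0.622, 0.729 and 0.995 FPKM (log2 difference -3.22, SE 0.20, limma adjusted p = 8.32e-07). Nuf2, Spc24 and Spc25 encode 3 of the 4 subunits of the Ndc80 complex, and they had differences of -2.96, -3.16 and -3.14. The fourth, Ndc80, is the listed gene that the rule did not find, because no row carries its symbol. A row that the table describes as this kinetochore component carries only its identifier (ENSRNOG00000013727, chromosome 9, 111407191 to 111440924 in the deposited table). This row was looked up after the rule had missed it and was left out of every count of levels and tests. The promoter window of Ndc80 is among the 45 counted above. The row stood at 10.2, 15.0 and 12.9 FPKM in static and 0.958, 1.02 and 0.999 FPKM in loaded Nb3 alloy (log2 difference -2.77, SE 0.19, limma adjusted p = 1.68e-06).

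The chromosomal passenger complex, which corrects faulty attachments, was lower in 4 of 4 genes. Aurkb, its kinase, went from 38.7, 50.6 and 54.2 FPKM to 2.93, 4.26 and 7.82 FPKM (log2 difference -3.09, SE 0.28, limma adjusted p = 1.04e-05). Birc5, known as survivin, had a difference of -3.06 (SE 0.26, limma adjusted p = 6.21e-06), and Incenp, the scaffold of the complex, one of -2.70 (SE 0.21, limma adjusted p = 4.42e-06). Cdca8, which encodes borealin, had one of -3.02.

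Of the 9 kinesin motors listed, 8 were tested and all 8 were called lower, between -3.82 and -2.52. Kif11, the motor that pushes spindle poles apart, went from 26.5, 33.6 and 42.4 FPKM to 1.47, 1.88 and 1.07 FPKM (log2 difference -3.82, SE 0.22, limma adjusted p = 5.49e-07). Kif2c, which shortens microtubules at kinetochores, had a difference of -3.23 (SE 0.17, limma adjusted p = 4.10e-07) and Kif20a, a motor of cytokinesis, one of -2.52 (SE 0.21, limma adjusted p = 6.73e-06). Among genes of spindle assembly and cytokinesis, 5 of 5 were called lower. Tpx2, which activates Aurka on the spindle, went from 48.2, 58.8 and 73.2 FPKM to 3.28, 2.52 and 1.69 FPKM (log2 difference -4.13, SE 0.21, limma adjusted p = 3.19e-07). Prc1, which bundles microtubules of the midzone, had a difference of -2.98 (SE 0.20, limma adjusted p = 1.17e-06). Anln, an actin-binding protein of the cleavage furrow, had one of -2.19 (SE 0.21, limma adjusted p = 1.97e-05).

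Chromosome condensation and surface genes were lower in 7 of 7, and here stood the member with the largest difference on the log2(FPKM + 1) scale. Mki67, the proliferation marker Ki-67 that coats mitotic chromosomes, stood at 137, 129 and 114 FPKM in static cpTi, 114, 68.6 and 97.9 FPKM in loaded cpTi, 121, 102 and 154 FPKM in static Nb3 alloy and 2.50, 3.60 and 2.31 FPKM in loaded Nb3 alloy. It kept 2.23% of its static mean (log2 difference -5.05, SE 0.21, limma adjusted p = 1.08e-07). Top2a, the topoisomerase that untangles sister chromatids, went from 70.7, 92.6 and 104 FPKM to 3.91, 3.48 and 2.88 FPKM (log2 difference -4.34, SE 0.19, limma adjusted p = 1.33e-07). The condensin core gene Smc4 fell less, from 28.3, 32.6 and 36.3 FPKM to 5.13, 5.68 and 5.32 FPKM (log2 difference -2.38, SE 0.16, limma adjusted p = 1.56e-06). Ncaph, a subunit of condensin I alone, had a difference of -3.50, and Smc2, shared by both condensins, one of -2.69.

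The genes that trigger anaphase were lower in 4 of 4, with the lowest median of the 8 roles, -3.72. Cdc20, which activates the anaphase-promoting complex, went from 39.9, 48.6 and 49.4 FPKM to 4.33, 2.30 and 2.60 FPKM (log2 difference -3.55, SE 0.20, limma adjusted p = 5.49e-07). Ube2c, the ubiquitin-conjugating enzyme of that complex, went from 59.0, 83.7 and 70.8 FPKM to 7.07, 5.28 and 1.70 FPKM (log2 difference -3.79, SE 0.39, limma adjusted p = 2.89e-05). Pttg1, which encodes securin, went from 39.9, 52.8 and 51.4 FPKM to 2.13, 1.8 and 1.52 FPKM (log2 difference -4.12, SE 0.18, limma adjusted p = 1.08e-07). Espl1, the protease separase that securin holds in check, was at 0.399, 0.483 and 0.759 FPKM in loaded Nb3 alloy after 16.5, 16.9 and 21.4 FPKM in static. In each of these genes the static and loaded values lie apart with a wide gap.

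**Figure D2:**
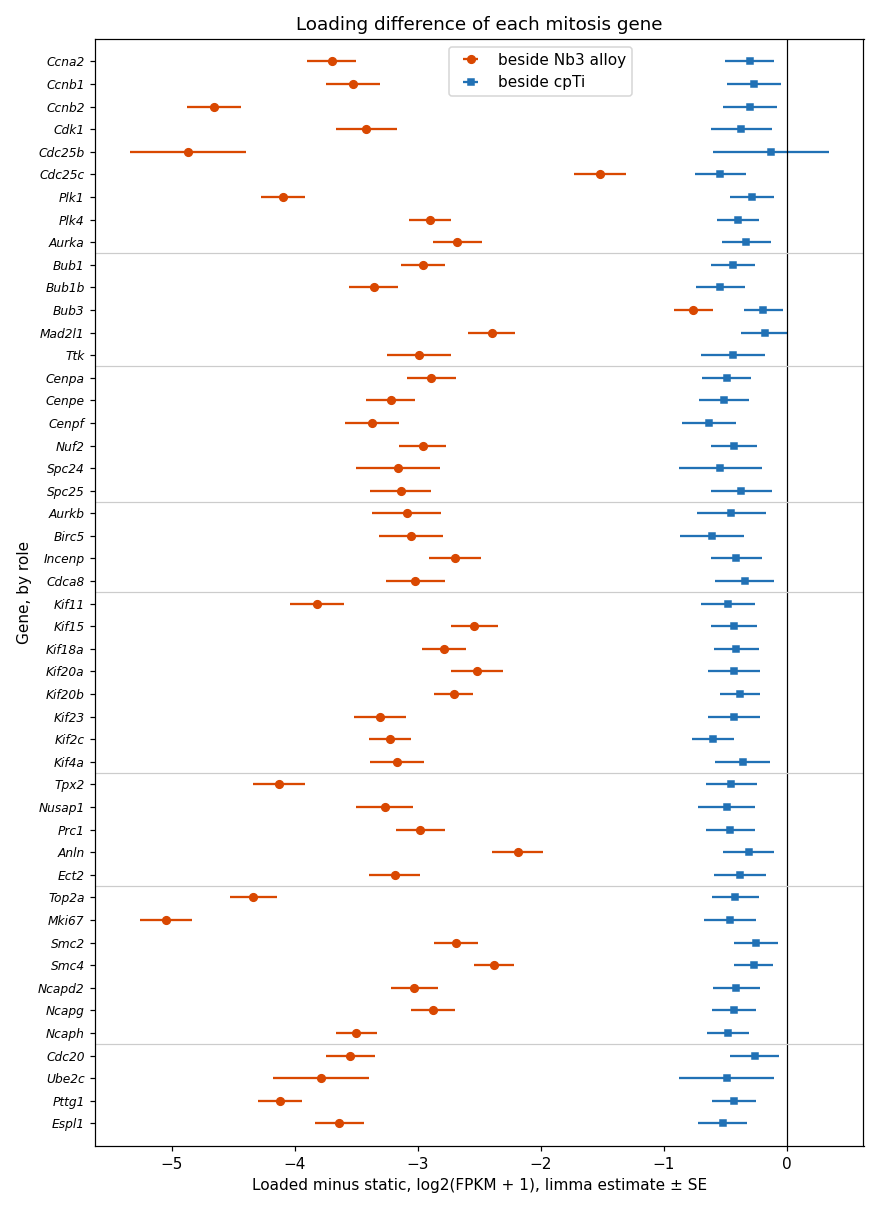
Loaded minus static difference of the 48 tested genes on the log2(FPKM + 1) scale, limma estimate ± SE, beside Nb3 alloy (circles) and beside cpTi (squares), by role. Beside Nb3 alloy the estimates run from -5.05 (Mki67) to -0.76 (Bub3), and beside cpTi all 48 lie between -0.63 and -0.13.

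Ratios of FPKM between some pairs of members differed in loaded Nb3 alloy. The 5 pairs were chosen after the values were seen and carry no test. Low levels in loaded Nb3 alloy rest on few reads, such as 42, 26 and 40 for Ccnb2 and 57, 27 and 37 for Cdc25c. Ccnb2 stood at 1.30 to 1.67 times Ccnb1 in the other 9 libraries and at 0.592, 0.322 and 0.860 times in loaded Nb3 alloy. Bub3 stood at 0.863 to 1.43 times Bub1b and then at 13.2, 7.87 and 11.4 times. Cdc25b stood at 34.2 to 76.6 times Cdc25c and then at 3.67, 22.5 and 3.74 times. The ratio of Aurka to Aurkb was 0.429 to 0.582 in the other 9, and in loaded Nb3 alloy it was above that range in replicates 1 and 2 (1.24 and 0.808) and below it in replicate 3 (0.244). Smc2 stood at 2.06 to 2.61 times Ncapg in the other 9 and at 3.69, 2.49 and 5.49 times in loaded Nb3 alloy, where replicate 2 lay inside that range. By promoter motif, the median difference was -3.17 in 27 tested members with both motif kinds, -2.72 in 6 with TTTGAA or TTCGAA but no CCAAT, -3.22 in 5 with CCAAT alone and -2.96 in 5 with none of them. Bub3, with the smallest difference, and Mki67, with the largest on the log2(FPKM + 1) scale, are both in the first of these groups, as is Ccnb2, which fell most by ratio of means.

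Other lists of cell cycle genes had smaller medians than the members. Over all genes tested, 25.2% were called lower and 20.7% higher with loading beside the Nb3 alloy. Of 73 further mitosis genes 72 were called lower and 0 higher, with a median of -2.37. Among them were Depdc1 (-3.31), the centralspindlin gene Racgap1 (-3.75) and Cdca5, which encodes the cohesin protector sororin (-2.90). The kinetochore gene Zwint was the 1 not called (0.04, limma adjusted p = 0.921), and its sign turned with total-read scaling and by limma-voom. Of 21 genes of G1 and S phase 18 were lower and 1 higher, with a median of -2.43. The replication licensing gene Cdc6 (-3.63), the nucleotide reductase gene Rrm2 (-3.97) and the helicase gene Mcm4 (-2.55) fell, and the cyclin gene Ccnd1 rose (1.54).

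Lists of machinery that cells also use outside mitosis had medians nearer 0 than the members, though single genes fell as much as members did, and the difference between lists was not tested. Of all genes tested, 25.2% were lower and 20.7% higher in this comparison. All 13 genes of condensin II and cohesin were called lower, but with a median of -1.05. The condensin II genes Ncapg2 (-2.52) and Ncapd3 (-2.44) had the largest differences there, and the cohesin gene Rad21 had -1.49. Of 13 subunits and activators of the anaphase-promoting complex 4 were lower and 0 higher, with a median of -0.11. They were the activator gene Fzr1 (-2.04), which is active after mitosis, Cdc27 (-0.62), Anapc1 (-0.64) and Anapc7 (-0.32), and the count was 3 with quantile normalization and 5 with total-read scaling. Of 12 tubulin and gamma-tubulin genes 7 were lower, led by Tuba4a (-3.80), Tubb4b (-2.05) and Tubg1 (-1.26), and 2 were higher, Tubb6 (1.79) and Tubb3 (1.43).

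Of 18 tested regulators of the mitotic programme 16 were lower and 0 higher, with a median of -1.20. The activator gene Mybl2 (-3.81) and the E2F repressor genes E2f8 (-4.03) and E2f7 (-2.49) were among them. Foxm1, an activator of G2 and M genes, was not tested. It lay under 1 FPKM in every library, at 0.0877 to 0.421 FPKM in the 9 and at 0, 0 and 0.218 FPKM in loaded Nb3 alloy. Of 15 inhibitors and quiescence genes 6 were lower and 5 higher, beside 25.2% lower and 20.7% higher of all genes. The p53 target Cdkn1a, which encodes the inhibitor p21, rose (1.97, limma adjusted p = 0.000275), and Cdkn2c, which encodes p18, and Btg2 fell (-2.61 and -1.71).

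Marker lists of several blood lineages were lower where the mitotic genes were, while blood progenitor markers were called in both directions. Of all genes tested, 25.2% were lower and 20.7% higher. The erythroid list summed to 1350 to 3160 FPKM in the other 9 libraries and to 65.9, 54.4 and 32.0 FPKM in loaded Nb3 alloy, with 11 of 11 tested genes called lower (median -5.84). The granulocyte precursor list summed to 1230 to 3240 FPKM and to 21.7, 46.1 and 11.5 FPKM, with 8 of 8 lower (median -6.07). B precursor markers were lower in 9 of 9 (median -2.66), mature neutrophil markers in 7 of 8 and megakaryocyte markers in 5 of 6. Of 8 blood progenitor markers 4 were lower and 1 higher, and 7 of the 8 estimates were below 0 (median -0.62, from -4.14 to 2.76). The sum of this list was 96.6 to 123 FPKM in the other 9 and 101, 177 and 99.1 FPKM in loaded Nb3 alloy. No gene of these 6 lists was at 0 in all 3 loaded Nb3 alloy libraries.

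Marker lists of other cell types differed in how many genes were called higher, and some were near the 20.7% of all genes. Fibroblast and ligament markers were higher in 8 of 8 (251 to 1100 FPKM in sum in the other 9, then 2900, 4040 and 2570 FPKM), endothelial markers in 5 of 6 and osteoblast markers in 3 of 8, with 0 lower in each. With quantile normalization 0 osteoblast markers were called higher. T cell markers had 3 of 6 higher (2 with total-read scaling and by limma-voom), osteoclast markers 3 of 7 (1 with total-read scaling and 2 by limma-voom) and osteocyte markers 1 of 6, with 0 lower in each, beside 20.7% of all genes higher. Macrophage markers had 2 higher and 1 lower of 8 (0 and 1 with total-read scaling), and oral epithelium markers 2 lower of 3 tested. The part of any of these cell types, or of the mitochondrial share of reads, in the fall of the mitotic genes was not tested.

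**Figure D3:**
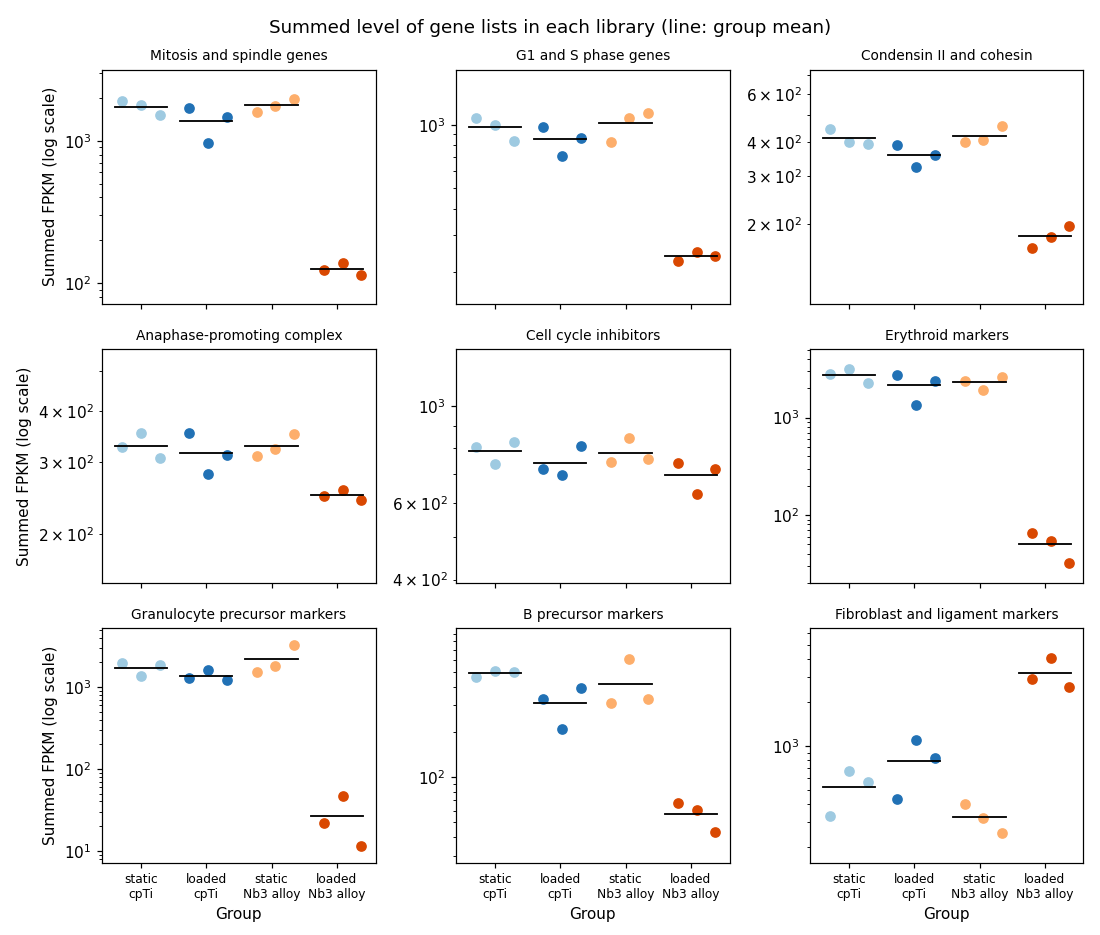
Summed FPKM (log scale) of 9 gene lists in each library, 3 points per group with a line at the group mean. The mitosis, G1 and S phase, erythroid, granulocyte precursor and B precursor sums are lower in the 3 loaded Nb3 alloy libraries than in the other 9. So are the sums of condensin II and cohesin and, by less, of the anaphase-promoting complex. The fibroblast and ligament sum is higher, and the sum of cell cycle inhibitors overlaps.

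Loading beside cpTi came with no call on any member. By limma 0 of 48 were called lower and 0 higher, against 0.00655% and 0.00% of all genes, and limma-voom also called 0. At an unadjusted p under 0.05, 18 members were lower and 0 higher, against 4.22% of all genes lower. All 48 estimates lay below 0, as did 54.6% of all genes, with a median of -0.43 for the members and -0.03 for all genes. In 21 members the 3 loaded values lay below the 3 static ones, against 9.40% of all genes. The summed level was 1910, 1790 and 1510 FPKM in static and 1690, 969 and 1470 FPKM in loaded cpTi. The ranges overlap through loaded replicate 1.

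The members with the smallest p were Kif2c, Ncaph, Cenpf and Bub1b. Kif2c stood at 19.3, 17.2 and 15.7 FPKM in static and 13.0, 8.58 and 12.1 FPKM in loaded cpTi, without overlap (log2 difference -0.60, SE 0.17, limma adjusted p = 0.602). Ncaph had a difference of -0.48, Cenpf, a kinetochore protein of G2 and mitosis, one of -0.63 and Bub1b, the gene of the checkpoint protein BubR1, one of -0.54 (limma adjusted p = 0.666 for each).

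Much of this difference lay in 1 library. Loaded cpTi replicate 2 was the lowest of the 9 libraries outside loaded Nb3 alloy in 47 of 48 members, the exception being Spc24. Relative to the mean of the 6 static libraries, the median of the 48 genes was -0.82 there and -0.15 and -0.32 in loaded cpTi replicates 1 and 3. Without that library the median of the comparison was -0.24, with 47 of 48 below 0 and 0 called. The same library had the lowest erythroid sum of the 9 (1350 FPKM) and the lowest B precursor sum (209 FPKM). It had the highest osteoblast sum (14900 FPKM) and the highest fibroblast and ligament sum (1100 FPKM), while its granulocyte precursor sum (1600 FPKM) was above those of loaded cpTi replicates 1 and 3. Their part in the low mitotic levels of that library was not tested.

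**Figure D4:**
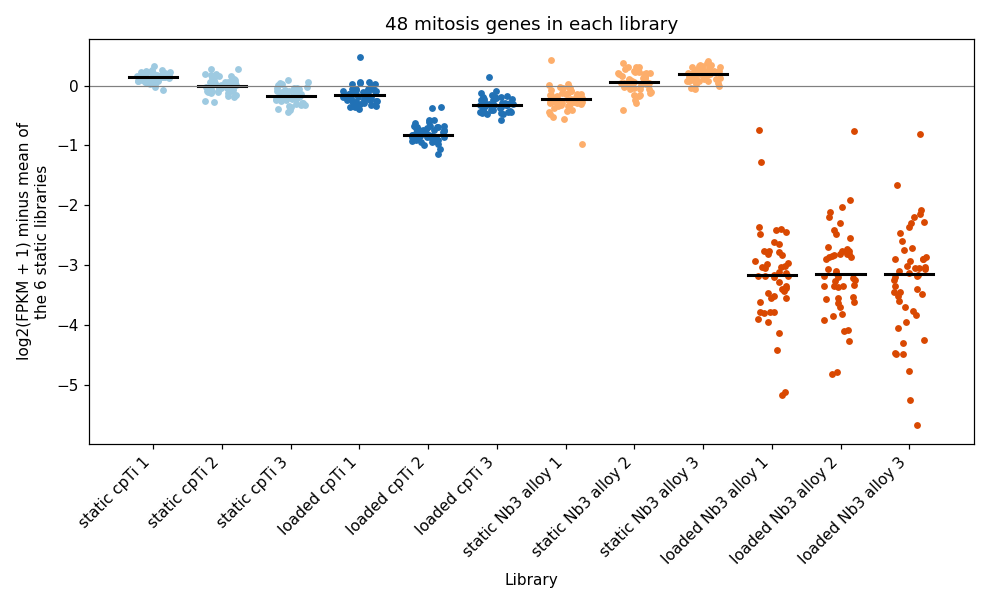
Each of the 48 tested genes in each library, as log2(FPKM + 1) minus its mean over the 6 static libraries, with a bar at the median of the 48. The medians lie at -3.16, -3.15 and -3.14 in loaded Nb3 alloy, at -0.82 in loaded cpTi replicate 2, and between -0.32 and 0.20 in the other 8 libraries.

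Without loading, no difference in the mitotic genes between the materials was called. The summed level was 1739 ± 205 FPKM in static cpTi and 1771 ± 194 FPKM in static Nb3 alloy (SD, n = 3 each). By limma 0 of 48 members were called in either direction, against 0.00% of all genes lower and 0.00% higher, and limma-voom called 0. At an unadjusted p under 0.05 the count of members was also 0 in both directions. Estimates lay below 0 in 20 members and above 0 in 28, with a median of 0.01, where 49.8% of all genes lay below 0. The groups were apart in 0 members, against 4.41% of all genes apart with the alloy lower and 2.88% with it higher. The smallest p belonged to Cdc25c (-0.19, SE 0.21), Aurka (0.16, SE 0.20), Plk1 (0.14, SE 0.18) and Ccnb2 (0.16, SE 0.22), each with a limma adjusted p of 1. A p of this size does not show that the levels were equal.

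The static libraries of the alloy differed among themselves, with medians over the members of -0.23, 0.06 and 0.20 relative to the mean of the 6 static libraries. Replicate 3 was the highest of the 9 libraries outside loaded Nb3 alloy in 29 members, and static cpTi replicate 1 in 11. Spc24 ranged most in this group, at 16.8, 44.2 and 45.3 FPKM, and its low value in replicate 1 was below that of every other library of the 9. The median coefficient of variation of the members was 12.7% in static cpTi, 17.3% in static Nb3 alloy, 23.0% in loaded cpTi and 26.0% in loaded Nb3 alloy.

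Under loading, the alloy was set against cpTi with the same 3 loaded Nb3 alloy libraries that the loading comparison used, so the results are not independent of it. All 48 members were called lower beside the alloy, against 18.9% of all genes lower and 14.7% higher, with a median of -2.70 where all genes had -0.01. All 48 estimates were below 0, against 50.8% of all genes. In 48 the groups did not overlap, against 25.5% of all genes. The differences ran from -4.76 for Cdc25b (SE 0.47, limma adjusted p = 3.56e-05) and -4.62 for Mki67 (SE 0.21, limma adjusted p = 3.19e-07) to -0.59 for Bub3 (SE 0.16, limma adjusted p = 0.0156). Bub3 was not called without loaded cpTi replicate 1 (-0.52, adjusted p = 0.0634) or without loaded cpTi replicate 3 (-0.55, adjusted p = 0.0566), both by limma.

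The rest of the panel fell in this comparison as follows. Of the genes of mitotic entry, Plk1 had -3.68, Ccnb1 -3.27 and Cdk1 -2.97. Of the kinetochore and checkpoint genes, Cenpe had -2.70, Ttk -2.49, Bub1 -2.46 and Cenpa -2.29. Of the passenger complex, Aurkb had -2.64, Birc5 -2.51 and Incenp -2.32. The motor genes Kif11, Kif2c and Kif20a had -3.30, -2.70 and -2.00, and the spindle and furrow genes Tpx2, Prc1 and Anln had -3.65, -2.63 and -1.83. Top2a had -3.84 and Smc4 -2.06, and the anaphase genes Pttg1, Ube2c and Cdc20 had -3.65, -3.39 and -3.27. The limma adjusted p of these genes was at most 0.000115, which was that of Anln.

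The interaction asks whether the loading difference beside the alloy differed from that beside cpTi. Of 48 members 47 were called lower in it and 0 higher, against 11.8% lower and 8.42% higher of all genes, with a median of -2.66. All 48 estimates were below 0, against 51.7% of all genes. The smallest p belonged to Mki67 (-4.59, SE 0.30, limma adjusted p = 1.15e-05), Plk1 (-3.82, SE 0.26, limma adjusted p = 1.38e-05), Pttg1 (-3.69, SE 0.25, limma adjusted p = 1.38e-05) and Top2a (-3.92, SE 0.27, limma adjusted p = 1.58e-05). The member not called was Bub3 (-0.57, SE 0.22, limma adjusted p = 0.0987), named after its value was seen. It was called by limma-voom (-0.80, adjusted p = 0.0467) and by limma without static Nb3 alloy replicate 1 (-0.75, adjusted p = 0.0167).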

How the data were processed

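Libraries of polyadenylated RNA from 12 bone samples were made with a NEBNext Ultra kit after TRIzol isolation, per the labels' protocols. The file the authors deposited holds FPKM of 33801 genes and each gene's length. Tools listed in the submitters' processing notes, with no roles, were HISAT2 2.0.5, DESeq2 1.20.0, CASAVA 1.8, featureCounts 1.5.0-p3 and fastp. The genome build is not given in the sources used here, nor is the use of strand in counting. Overlapping genes may therefore share reads. Products of FPKM and length were divided, in each library, by the typical size of its smallest products above 0, assumed to be a single read. The results were whole reads, to 0.01 read, for about 99.99% of values or more in each library. Those reads gave depth, read counts and shares of reads. They also served limma-voom, total-read scaling and the simulated data, but not the main tests.

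Tests used limma 3.58.1 (R 4.3.3) on log2(FPKM + 1), with trended, robust moderation and group means fitted to all 12 libraries together. Genes needed 1 FPKM in at least 3 libraries, and p-values were adjusted by Benjamini-Hochberg over all 15268. The members and gene lists were chosen with earlier results of these data known. Genes named with tests are a panel of 25 members set by role, the extremes, the 4 of smallest p in the comparisons beside cpTi, without loading and of the interaction, and up to 3 called genes by smallest p of each other cell cycle list. Others were named after their values were seen. Marker lists are given by counts and sums. Alternatives were total-read scaling, quantile normalization, a pseudocount of 0.1, no filter, limma-voom, a replicate block, the compared groups alone, an adjusted p under 0.01 and each library left out. The fit was also run on simulated data in which few genes differed between groups. In loaded Nb3 alloy many genes differed, so that run does not speak to this case. Python 3.11.15, pandas 2.3.3 and matplotlib 3.10.9 made tables and plots. Promoters are RefSeq windows of GRCr8.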

Additional observations from a re-analysis of the deposited data

Results flagged for a closer look

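The loading difference itself differed between the materials, by limma's interaction term. It was lower beside the alloy in 47 of 48 members, against 11.8% of all genes, and the genes with the smallest p were Mki67 (-4.59), Plk1 (-3.82), Pttg1 (-3.69) and Top2a (-3.92). Each of these 4 had all 3 loaded Nb3 alloy libraries below the other 9, as had 21.2% of all genes. In the same interaction 11 of 11 erythroid, 8 of 8 granulocyte precursor, 6 of 8 mature neutrophil, 5 of 6 megakaryocyte and 6 of 9 B precursor markers were lower, and of 8 blood progenitor markers 2 were lower and 1 higher. Fibroblast and ligament markers were higher in 6 of 8 and endothelial markers in 4 of 6. The part of these lists in the members' result was not tested.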

How the results depend on the processing

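Each count of members called was within 1.5 times its main value in every alternative: 48 for loading beside Nb3 alloy, 0 for loading beside cpTi and for the materials without loading, 47 to 48 for the materials under loading, and 46 to 48 for the interaction. With a replicate block the counts were 48 and 0 for loading, 48 and 0 for the materials, and 47 for the interaction, so the block changed no count. Correlations between the deviations of same-numbered libraries from their group means ran from -0.252 to 0.115. With 3 libraries per group these cannot exclude that samples were paired. Of the alternatives for named members, 480 of 480, 80 of 80, 477 of 480, 80 of 80 and 93 of 95 kept direction and side of the threshold, in the same order as the counts above, and 0 reversed. The others were all Bub3: lost under loading without loaded cpTi replicate 1 (-0.52) or replicate 3 (-0.55) and at an adjusted p under 0.01, where the value stays -0.59, and gained in the interaction by limma-voom (-0.80) and without static Nb3 alloy replicate 1 (-0.75). The cause was not tested. For loading beside Nb3 alloy the members' median was -3.27 with total-read scaling, -2.99 with quantile normalization, -3.79 with a pseudocount of 0.1 and -4.08 by limma-voom. The same scalings put the median of all genes at -0.17, 0.06, -0.03 and -0.22, so the fall of the members is relative to these. Calls over all genes there were 3840 lower and 3156 higher, against 4668 and 2266 with total reads, 3337 and 3573 with quantiles and 4799 and 2225 by limma-voom. For the materials under loading they were 2884 and 2239, against 3671 and 1358, 2456 and 2727, and 3823 and 1352 in the same order, and for the interaction 1804 and 1285, against 2386 and 845, 1638 and 1397, and 2638 and 735. Leaving out each library gave member medians of -3.29 to -3.00 for loading beside Nb3 alloy, -0.53 to -0.24 beside cpTi, -2.86 to -2.58 for the materials under loading, -0.08 to 0.15 for the materials without loading and -2.87 to -2.52 for the interaction. Depth limits the low values: a tested member had as few as 17 reads in a loaded Nb3 alloy library.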
